A study of Mus musculus with 24 samples.

Results

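The 10 genes described here, Dio2, Tmem178, Npy, Gpr176, Bdh2, Flrt2, Prss46, Angptl2, Tmem171 and Pcp4l1, were picked from a table of 45706 mouse gene identifiers because they were near absent in tissue-resident macrophages (TRMs) sorted ex vivo and high in the matching TRM-like cells (TRM-LCs) grown in vitro from brain, liver, peritoneum and lung. The sorted and cultured values chose these genes, so every difference of the 10 between sorted and cultured groups below is a description. Test calls on that contrast carry no support for them. Other genes called higher or lower in vitro below were tested. The 10 genes were not alike in the cultures: Pcp4l1 and Tmem171 were at most 4.89 CPM (read counts scaled to a common library size) in each library of the lung cultures, and for Pcp4l1 these levels overlapped those of sorted microglia.

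The study compared freshly sorted TRMs with cells that had grown out of the same organs in a shared culture procedure. RNA from 8 groups with 3 libraries each was sequenced: microglia (MG), Kupffer cells of the liver (KC), peritoneal macrophages (PM) and alveolar macrophages (AM) ex vivo, and MG-LCs, KC-LCs, PM-LCs and AM-LCs in vitro. All donors were female C57BL/6J mice of 8 to 12 weeks per the labels, which name no altered allele and no treatment for any group. The sorted cells were gated as CD45 low CD11b+ cells for MG, with F4/80 and TIM-4 for KCs, with CD115 and F4/80 for PMs and with SiglecF for AMs.

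The cultured cells were not sorted and grew in flasks coated with polyethylenimine. KC-LCs and PM-LCs received M-CSF, MG-LCs received M-CSF with IL-34, and these 3 cultures were kept at low oxygen with high glucose. AM-LCs received GM-CSF at atmospheric oxygen without glucose, so that growth factor, oxygen, glucose and organ all differ together between AM-LCs and the other cultures and cannot be told apart. Brain, lung and peritoneal cells of several mice went into 1 flask, whereas livers were processed singly. No source ties libraries with the same number to the same mice.

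Resident macrophages take much of their gene expression from the tissue around them, and signals such as transforming growth factor beta in the brain or GM-CSF in the lung hold their identity genes active. Taken out of the tissue, macrophages lose part of this programme and switch on genes of adhesion, growth and altered metabolism. Some of the 10 genes are better known from other cells: Npy from neurons, Dio2 from glia and brown fat, and Angptl2 and Flrt2 from stromal and vascular cells. Prss46 lies in a gene cluster of serine proteases.

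The libraries held 29569486 to 47105111 reads assigned to genes, so that 1 read corresponded to between 0.0220 and 0.0382 CPM after normalisation. In bulk RNA, fewer cells of a type and less RNA per cell cannot be told apart. The summed level of 8 fibroblast and mesothelium genes was 30934, 7.39 and 1012 CPM in MG-LC libraries 1, 2 and 3, which sets MG-LC library 1 apart. The same sum was 0.0240 to 29.8 CPM in KC-LCs, 22.9 to 2208 CPM in PM-LCs, 17.0 to 1667 CPM in AM-LCs and at most 23.8 CPM in the sorted libraries. Pan-macrophage genes added up to at least 13123 CPM in every library. In the cultures most of this sum was Lyz2, at group means of 21314 to 58318 CPM. Csf1r stood at 628 CPM in the lowest MG-LC library, beside a group mean of 1684 CPM. The AM marker list added up to 2456 to 9449 CPM in AM-LCs and at most 29.8 CPM in the other cultures. The KC list was 16.9 to 94.0 CPM in KC-LCs, below 215 to 2233 CPM in MG-LCs and 142 to 826 CPM in PM-LCs. Most of this sum was Cd5l, at means of 44.3, 890 and 469 CPM in KC-LCs, MG-LCs and PM-LCs. Clec4f, Timd4 and Vsig4 averaged at most 0.132 CPM in both KC-LCs and MG-LCs, and 0.612, 3.88 and 59.7 CPM in PM-LCs. Sorted AMs held 20721 to 23764 CPM of the AM list, and sorted KCs 13881 to 24793 CPM of the KC list. The MG list in MG-LCs (295 to 2398 CPM) overlapped KC-LCs (311 to 435 CPM). The PM list in PM-LCs (858 to 2143 CPM) also overlapped KC-LCs (895 to 1566 CPM).

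The start regions of 9 of the 10 genes matched a RefSeq entry (build GRCm38.p6), and 4 are shown because they belong to the members the results turn on: the 250 bases before the start of Dio2, whose window alone held a full cyclic AMP response element, of Npy, which had the highest mean level per kilobase of exon in each culture, of Flrt2, which ranked first among the members by the smallest of its 4 tissue differences, and of Pcp4l1, which differed most between cultures. Capitals mark searched motifs. 
Dio2, chr12:90739039-90739288, minus strand: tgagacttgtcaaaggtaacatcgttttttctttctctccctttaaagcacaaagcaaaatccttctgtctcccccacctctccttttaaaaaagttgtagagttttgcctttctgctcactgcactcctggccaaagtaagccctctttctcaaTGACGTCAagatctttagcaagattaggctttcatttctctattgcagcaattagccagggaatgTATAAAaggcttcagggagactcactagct
Npy, chr6:49822460-49822709, plus strand: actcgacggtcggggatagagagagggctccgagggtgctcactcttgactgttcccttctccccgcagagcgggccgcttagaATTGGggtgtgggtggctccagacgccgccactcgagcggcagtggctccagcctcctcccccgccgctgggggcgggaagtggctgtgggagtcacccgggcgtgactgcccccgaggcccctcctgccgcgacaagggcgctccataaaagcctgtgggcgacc
Flrt2, chr12:95691976-95692225, plus strand: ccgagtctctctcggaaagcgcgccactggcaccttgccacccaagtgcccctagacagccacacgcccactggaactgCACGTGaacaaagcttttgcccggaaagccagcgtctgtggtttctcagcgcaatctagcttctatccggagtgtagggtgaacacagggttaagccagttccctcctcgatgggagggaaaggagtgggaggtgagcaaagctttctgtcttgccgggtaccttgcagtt
Pcp4l1, chr1:171196269-171196518, minus strand: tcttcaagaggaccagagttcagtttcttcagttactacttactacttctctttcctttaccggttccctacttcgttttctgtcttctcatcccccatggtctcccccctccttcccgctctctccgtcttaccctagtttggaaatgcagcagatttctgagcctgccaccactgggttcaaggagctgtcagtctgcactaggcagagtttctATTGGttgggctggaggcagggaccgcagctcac

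The motifs were searched on both strands of these 250 bases: AP-1 (TGAGTCA or TGACTCA), the cyclic AMP response element (TGACGTCA), an E-box (CACGTG), an ETS core (GAGGAAG), the CCAAT box, the TATA box (TATAAA) and an NFAT core (GGAAAA). The cyclic AMP response element stood 95 bases before the RefSeq start of Dio2, which lies 600 bases upstream of the gene's GENCODE start, with TATAAA 30 bases before it, and was present in 1.55% of 32851 windows. TATAAA was present in 12.4% of all windows and, among the members, in Dio2 alone. Flrt2 was the 1 member with CACGTG, which 6.02% of windows held, and Npy, Bdh2, Prss46 and Pcp4l1 held CCAAT, as did 33.8% of windows. Bdh2 alone carried the NFAT core, present in 20.4% of windows. AP-1 and the ETS core matched no member, beside 4.46% and 10.6% of all windows. The GC content of the 9 windows ran from 41.6% in Dio2 to 77.2% in Tmem178, around a median of 52.4% over all windows. No motif was found in more than 4 of the 9 windows, and a match is only a match of letters.

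Ex vivo, 87 of the 120 pairs of a member and a sorted library had no read, 22 had 1 to 10 reads and 11 had more. In vitro, all 120 pairs had reads, the fewest being 18, and 105 had at least 100. All 3 cultured libraries lay above all 3 sorted libraries of the same tissue for 10 of 10 members in each of the 4 tissues, where 4.79% of 17408 genes did so. All 10 were also called higher in vitro in every tissue by edgeR's quasi-likelihood test (adjusted p under 0.05 and log2 fold change above 1.5), against 16.4% of genes tested in MG, 7.62% in KC, 10.2% in PM and 12.9% in AM. Nothing is read from these counts, since this contrast chose the genes. All 12 cultured libraries exceeded all 12 sorted libraries for 9 members, as for 1.57% of genes, the exception being Pcp4l1.

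**Figure D1:**
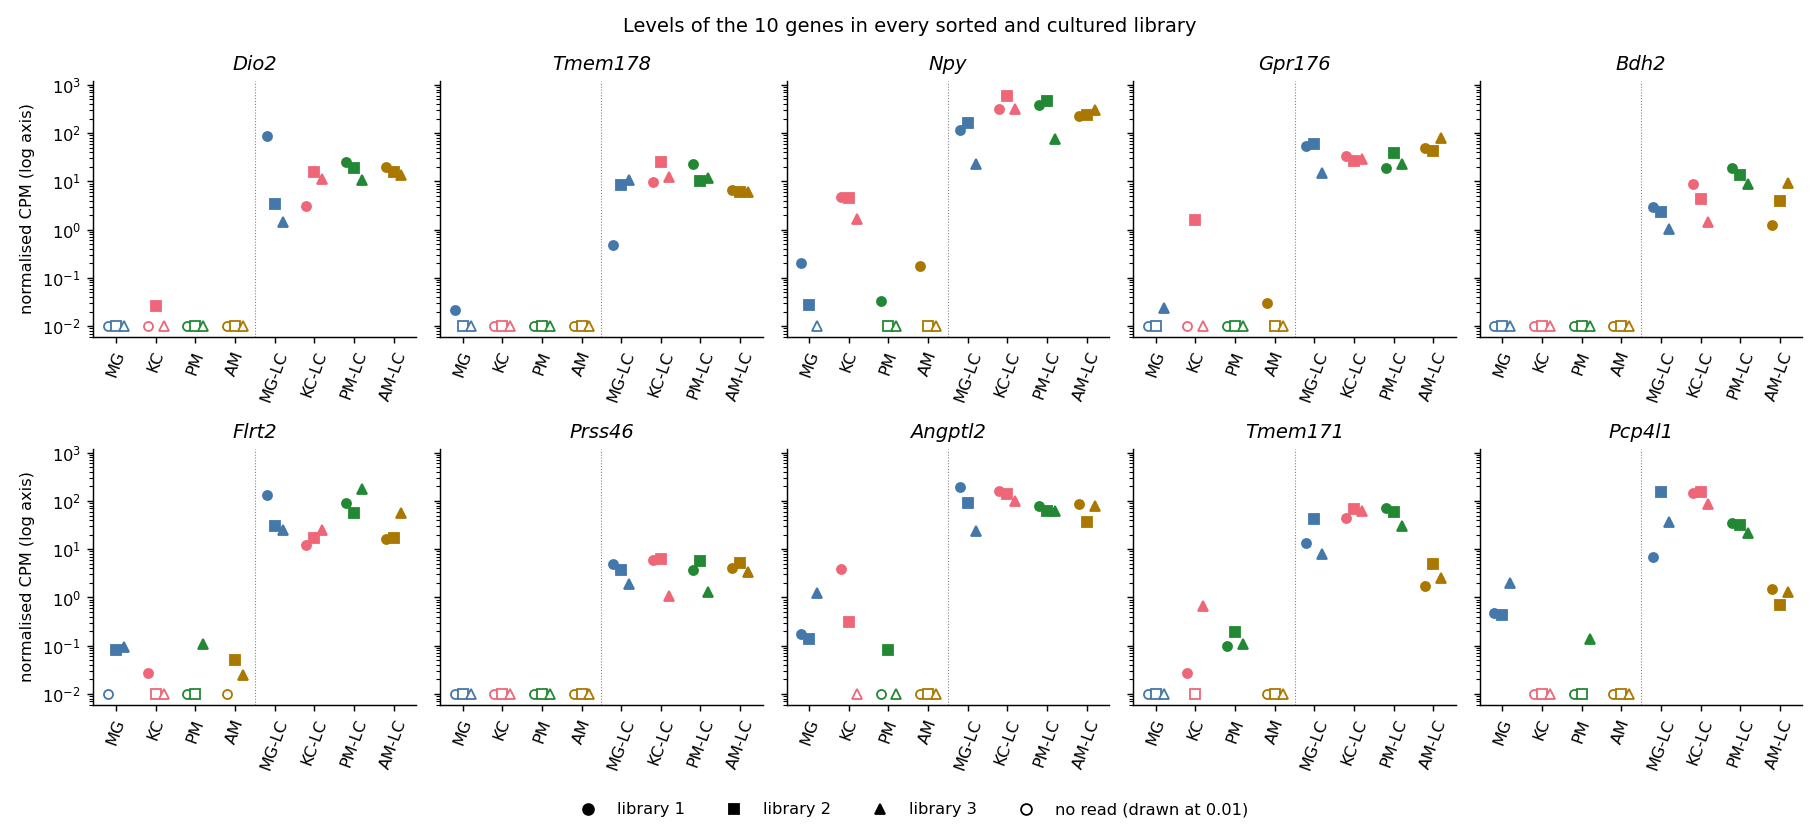
Normalised CPM (log axis) of each of the 10 genes in the 24 libraries, grouped as sorted (MG, KC, PM, AM) and cultured (MG-LC, KC-LC, PM-LC, AM-LC) cells. Symbol shape gives the library, and open symbols at 0.01 are libraries without a read. In the Pcp4l1 panel the AM-LC libraries at 0.687 to 1.47 CPM lie beside sorted MG at 0.433 to 1.98 CPM.

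Ranked over 45143 genes by the smallest of the 4 differences between cultured and sorted mean levels (log2 of CPM with 0.1 added), the members took places 2 to 65. Flrt2 took place 2 with a smallest difference of 7.39, and Npy, Dio2 and Angptl2 took places 4, 6 and 7 with 6.75, 6.54 and 6.46. The other genes among the first 10 were Vegfa at 7.91, Cpe, Dusp4, Pcdh7, Gdf3 and Sdc1 at 5.96. Tmem178, Gpr176, Prss46, Tmem171, Bdh2 and Pcp4l1 followed at places 11, 13, 19, 23, 34 and 65. Bdh2 and Tmem178 were at their smallest difference in MG, Prss46 in PM, Tmem171 and Pcp4l1 in AM, and the other 5 in KC.

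Npy (chr6:49822710-49829507, plus strand), which encodes the neuropeptide Y precursor, had the highest mean level of the members per kilobase of exon in each culture. Its CPM in libraries 1, 2 and 3 was 117, 165 and 22.7 in MG-LCs and 317, 581 and 311 in KC-LCs. PM-LCs held 385, 457 and 75.2 CPM, and AM-LCs 223, 232 and 308 CPM. Library 3 of both MG-LCs and PM-LCs was several times below its partners, whereas KC-LCs and AM-LCs were more even. Sorted KCs were the 1 sorted group with Npy in every library, with 171, 178 and 59 reads or 1.68 to 4.64 CPM. Sorted MG had 9, 1 and 0 reads, PM 1, 0 and 0, and AM 6, 0 and 0. The ratio of the means was 110.4 in liver cells, 1355 in brain cells and 4258 in lung cells. In peritoneal cells, with 1 sorted read, it was 27443 with a 95% counting interval of 5676 to 1249100. In order of mean CPM, KC-LCs (403 ± 154, SD, n = 3) stood before PM-LCs (306 ± 203), AM-LCs (254 ± 46.7) and MG-LCs (102 ± 72.5). Only the last step separated the libraries, AM-LCs lying above MG-LCs as for 16.7% of genes tested.

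Neuropeptide precursors are cut by prohormone convertases, trimmed by carboxypeptidase E (Cpe) and amidated by Pam, and Dpp4 clips the finished peptide. Cpe was called higher in vitro in all 4 tissues, from 0.0249 to 0.804 CPM ex vivo to 145 CPM in MG-LCs, 20.0 in KC-LCs, 63.5 in PM-LCs and 19.8 in AM-LCs. Pam was called higher in MG-LCs, KC-LCs and AM-LCs, at 16.8, 13.3 and 8.99 CPM, but not in PM-LCs. Pcsk1 was called higher in KC-LCs and PM-LCs, at 4.59 and 1.88 CPM. Dpp4 moved both ways, from 28.8 to 0.137 CPM between KCs and KC-LCs and from 0.156 to 17.3 CPM between AMs and AM-LCs. Of 12 genes on this list, 2 to 4 were tested in a tissue, and 2, 3, 2 and 3 were called higher in MG, KC, PM and AM cultures and 0, 1, 0 and 0 lower. Over all genes tested, 13.5%, 14.7%, 7.57% and 8.62% were called lower in these tissues. The receptor genes Npy2r and Npy5r had no read in any library, and mean Npy1r did not exceed 1.96 CPM (AM-LCs).

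Angptl2 (chr2:33216069-33247717, plus strand) encodes a secreted angiopoietin-like glycoprotein known as a ligand of integrin alpha 5 beta 1 and of PIRB-type receptors. Its CPM was 199, 90.6 and 24.1 in MG-LC libraries 1, 2 and 3, and 162, 141 and 98.3 in KC-LCs. PM-LCs held 79.5, 62.9 and 62.0 CPM and AM-LCs 87.6, 37.4 and 80.6 CPM. PM-LCs were the most even culture, and MG-LCs spread 8.24-fold. Ex vivo, sorted AMs had no read, PMs 0, 3 and 0, MG 8, 5 and 52, and KCs 145, 12 and 0. KC library 1, with 145 reads or 3.94 CPM, also held the largest fibroblast and mesothelium sum of the sorted libraries. Whether that RNA accounts for the reads was not tested. Mean levels ran from 134 ± 32.5 CPM in KC-LCs over MG-LCs (104 ± 88.0) and AM-LCs (68.5 ± 27.2) to PM-LCs (68.1 ± 9.87), and the libraries of each neighbouring pair overlapped. Angptl2 lies inside Ralgps1 on the other strand, sharing no exon bases.

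Of 15 angiopoietin-like and receptor genes, 10 or 11 were tested in each tissue, and 3 were called higher in MG, 1 in KC, 1 in PM and 3 in AM cultures, with 1, 1, 1 and 2 lower. Itga5, the integrin alpha subunit, was called higher in MG-LCs and PM-LCs, at 226 and 210 CPM. Pirb was called higher in MG-LCs alone, at 314 CPM against 24.2 CPM ex vivo, whereas sorted KCs, PMs and AMs already held 272 to 628 CPM. The integrin beta gene Itgb3 was called higher in KC-LCs (44.0 CPM) and AM-LCs (24.8 CPM), and the protease gene Bmp1 in AM-LCs (19.1 CPM). Angptl7 was called lower in KC-LCs, at 0.0420 against 25.9 CPM. The paralog Angptl4, an inhibitor of lipoprotein lipase, rose to 77.0 CPM in MG-LCs and fell from 247 to 27.5 CPM in AM-LCs. The highest MG-LC library held 209 CPM of Angptl4.

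Dio2 (chr12:90724552-90738438, minus strand) encodes the deiodinase that turns thyroxine into the active hormone inside cells. Its CPM in libraries 1, 2 and 3 was 88.2, 3.31 and 1.46 in MG-LCs, 3.02, 15.9 and 11.1 in KC-LCs, 25.0, 19.1 and 10.5 in PM-LCs, and 19.8, 15.5 and 13.3 in AM-LCs. A single read in KC library 2 was all that the 12 sorted libraries held. The lower bounds, taken against 3 reads per sorted library, were at least 425-fold higher in MG-LCs, 207-fold in PM-LCs and 202-fold in AM-LCs. The MG-LC bound was 32.7-fold without library 1. The KC ratio was 1158 with a 95% counting interval of 198 to 43680. MG-LCs had the highest mean, 31.0 ± 49.6 CPM, but only through library 1: the other MG-LC libraries were among the lowest of all 12. The 60.6-fold spread over the MG-LC libraries was the widest of any member in any culture. MG-LC minus the mean of KC-LC and PM-LC was 1.29 on the log2 scale (adjusted p = 0.519) and -2.51 without library 1 (adjusted p = 0.302), so the sign rested on that library. A gene of the opposite strand, Gm26512, shares 100 exon bases with Dio2 and had 260 reads over the 24 libraries. The preparation does not keep strand, so reads within the shared bases cannot be assigned by strand.

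Thyroid hormone genes moved less uniformly. Of 16 listed, 10 to 12 were tested in a tissue. In MG 1 was called higher and 3 lower, in KC 0 and 3, in PM 1 and 0, and in AM 2 and 3. The receptor gene Thrb fell from 28.9 CPM in KCs to 0.838 CPM in KC-LCs and rose from 0.412 to 5.40 CPM in AM-LCs. Slco4a1, an organic anion transporter gene, was called higher in AM-LCs at 22.3 CPM, and Thrsp lower in MG-LCs at 0.246 against 50.6 CPM. Dio1 had no read in any culture and mean Dio3 did not exceed 0.702 CPM (MG-LCs), so Dio2 was the deiodinase with reads in every culture.

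Bdh2 (chr3:135281221-135304426, plus strand) encodes a cytosolic short-chain dehydrogenase that oxidises hydroxybutyrate. It had no read in any of the 12 sorted libraries. In vitro, libraries 1, 2 and 3 held 3.00, 2.27 and 1.03 CPM for MG-LCs and 8.66, 4.31 and 1.46 for KC-LCs. PM-LCs held 19.3, 13.4 and 8.99 CPM and AM-LCs 1.27, 3.86 and 9.40 CPM. All PM-LC libraries stood above all KC-LC and MG-LC libraries, while library 3 of AM-LCs reached into the PM-LC range. Against 3 reads per sorted library these means were at least 28.8-fold higher in MG-LCs, 59.0-fold in KC-LCs, 158-fold in PM-LCs and 60.3-fold in AM-LCs. The KC-LC bound was 35.4-fold without library 1 and the AM-LC bound 31.9-fold without library 3. KC-LCs lay entirely below PM-LCs, as did 10.2% of genes, with a log2 difference of -1.52 (SE 0.79, adjusted p = 0.456) that did not pass the test.

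The neighbour 3.3 kb from Bdh2, Slc9b2, which encodes a sodium-hydrogen exchanger, was called higher in vitro in all 4 tissues. It had 0.574 CPM or less on average in sorted cells, and 5.70, 9.12, 19.4 and 1.76 CPM in MG-LCs, KC-LCs, PM-LCs and AM-LCs. Of the 20 nearest protein-coding neighbours of the members, 13 or 14 were tested, and 4 were called higher in MG, 5 in KC, 4 in PM and 2 in AM cultures, with 3, 1, 1 and 2 lower. Slc9b2 was singled out after its values were seen. Of 11 ketone body and siderophore genes, 1, 1, 1 and 4 were called higher in MG, KC, PM and AM cultures and 2, 1, 3 and 1 lower. Bdh1, the mitochondrial paralog, was called higher in MG-LCs (2.74 CPM) and AM-LCs (37.1 CPM). Slc16a1, a transporter of lactate and ketone bodies, was called higher in KC-LCs and AM-LCs at 22.5 and 83.4 CPM. Slc22a17, the lipocalin receptor, was called lower in all 4 cultures, at 0.290 to 13.2 CPM against 30.4 to 77.5 CPM ex vivo. Lcn2 fell from 6.14 to 0.163 CPM in PM-LCs and rose from 0.914 to 52.9 CPM in AM-LCs.

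Prss46 (chr9:110844506-110856522, plus strand) encodes a trypsin-like serine protease. It also had no read in the 12 sorted libraries. In vitro, libraries 1, 2 and 3 held 5.0, 3.71 and 1.91 CPM in MG-LCs, 5.86, 6.25 and 1.08 in KC-LCs, 3.71, 5.59 and 1.29 in PM-LCs, and 4.08, 5.19 and 3.41 in AM-LCs. The 4 means lay between 3.53 and 4.40 CPM, the narrowest range of any member, while library 3 was the lowest of each culture. The bounds on the difference from sorted cells ran from at least 40.2-fold in PM-LCs to at least 53.9-fold in KC-LCs. The log2 difference between AM-LCs and the other cultures was 0.16 (95% interval -1.11 to 1.42). Of 10 related proteases, Prss50, which starts 1.4 kb away, was the 1 that could be tested, and was called higher in MG-LCs. It had no read ex vivo and 2.45, 2.42, 0.382 and 0.319 CPM in MG-LCs, KC-LCs, PM-LCs and AM-LCs. Prss45 on the other side, 3.2 kb away, had no read in vitro.

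Gpr176 (chr2:118277110-118373419, minus strand) encodes an orphan receptor known from the circadian clock of the brain, where it signals through Gz. Its CPM was 53.9, 58.2 and 15.0 in MG-LC libraries 1, 2 and 3, 33.9, 26.6 and 29.7 in KC-LCs, 18.9, 39.5 and 22.4 in PM-LCs, and 49.9, 41.9 and 79.6 in AM-LCs. Sorted cells had 1 read in MG library 3, 1 in AM library 1 and 62 in KC library 2, the other KC libraries having none. Without that library KCs would have no read; with it the ratio of the means was 56.1. KC-LCs were the most even culture, with a coefficient of variation (CV) of 12.1%. AM-LCs had the highest mean, 57.1 ± 19.8 CPM (SD, n = 3), and their difference from the other cultures was 0.83 on the log2 scale (SE 0.37, adjusted p = 0.173).

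The alpha subunit that Gpr176 uses, Gnaz, had a mean of at most 0.882 CPM in the cultures. Of 18 signalling and clock genes, 4 were called higher in MG, 1 in KC, 5 in PM and 4 in AM cultures, and 0, 2, 0 and 4 lower. The clock output gene Dbp was called higher in all 4, at 23.0, 14.4, 19.3 and 2.57 CPM. Rgs16, a regulator of G protein signalling, rose to 49.1, 5.85 and 4.28 CPM in MG-LCs, PM-LCs and AM-LCs from no more than 0.151 CPM. Its MG-LC mean rested largely on the highest library, at 134 CPM. Nr1d2 was called higher in PM-LCs and AM-LCs, at 85.8 and 38.0 CPM. Adcy3, an adenylyl cyclase gene, was called higher in MG-LCs and PM-LCs (48.5 and 19.7 CPM) and lower in KC-LCs and AM-LCs (6.86 and 78.5 CPM).

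Flrt2 (chr12:95692226-95785215, plus strand) encodes a membrane adhesion protein whose partners are UNC5 netrin receptors and latrophilins. Its CPM was 132, 29.99 and 25.5 in MG-LC libraries 1, 2 and 3, and 12.1, 17.3 and 25.1 in KC-LCs. PM-LCs held 92.5, 55.9 and 179 CPM, and AM-LCs 16.6, 17.4 and 56.3 CPM. The sorted libraries had 0 to 4 reads each, at most 0.108 CPM. The ratio of means was 1060 in brain cells (471 without MG-LC library 1) and 3021 in peritoneal cells, resting on 7 and 4 sorted reads. KC-LCs lay wholly below PM-LCs, as did 10.2% of genes. The log2 difference of -2.57 (SE 0.78, 95% interval -4.28 to -0.85) had an adjusted p of 0.192 in edgeR's quasi-likelihood test and 0.00812 in DESeq2. In 3 of the 4 cultures the highest Flrt2 library was also the one with the most fibroblast and mesothelium RNA, whereas in PM-LCs that library, library 2, had the lowest Flrt2. The part of that RNA was not tested.

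Flrt3, the paralog, was called higher in all 4 tissues, at 6.39, 1.75, 3.44 and 51.1 CPM in MG-LCs, KC-LCs, PM-LCs and AM-LCs. Flrt1 had at most 0.611 CPM on average. Of the receptors, Unc5b was called higher in MG-LCs, PM-LCs and AM-LCs at 15.2, 12.0 and 10.4 CPM. The MG-LC mean of Unc5b rested largely on the highest library, at 39.8 CPM. Unc5a was called lower in PM-LCs and AM-LCs at 4.70 and 3.00 CPM. Adgrl2, a latrophilin, was called higher in KC-LCs (29.97 CPM) and PM-LCs (10.9 CPM), whereas Adgrl3 was called lower in KC-LCs and in AM-LCs, there at 0.0802 against 24.9 CPM. Tenm4, a teneurin, fell in KC-LCs and rose in PM-LCs and AM-LCs. Of the 14 genes on this list, 7 were tested in each tissue, and 3, 2, 4 and 4 were called higher in MG, KC, PM and AM cultures and 0, 3, 2 and 2 lower.

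Tmem178 (chr17:80944632-81001816, plus strand) encodes a membrane protein of the endoplasmic reticulum known to dampen calcium signalling and osteoclast formation. Its CPM was 0.487, 8.46 and 10.5 in MG-LC libraries 1, 2 and 3, 9.91, 25.0 and 12.2 in KC-LCs, 23.4, 10.1 and 11.6 in PM-LCs, and 6.76, 6.11 and 5.92 in AM-LCs. MG-LC library 1 stood far below every other cultured library, with 19 reads. In AM-LCs the libraries differed by only 1.14-fold, the most even of all 40 combinations of member and culture. The 12 sorted libraries held 1 read in all, in MG library 1. The bounds were at least 193-fold in KC-LCs, 171-fold in PM-LCs and 78.0-fold in AM-LCs.

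Tmem178b, the paralog, averaged at most 0.188 CPM in the cultures. Plscr4, a phospholipid scramblase gene, rose from 0.0318 to 21.7 CPM in MG-LCs and from 0.0268 to 32.8 CPM in KC-LCs, but was already at 43.8 and 22.7 CPM in sorted PMs and AMs. Itpr3, a calcium channel gene of the store, rose from 1.85 to 10.6 CPM in AM-LCs. Nfatc2 fell in MG-LCs and rose in PM-LCs and AM-LCs, and Itpr2, a paralog of Itpr3, was called lower in MG-LCs, KC-LCs and PM-LCs. Of 14 genes on this list 13 were tested in each tissue, and 1, 1, 1 and 2 were called higher and 4, 2, 2 and 2 lower.

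Tmem171 (chr13:98686235-98694834, minus strand) encodes a little studied membrane protein from a locus linked to blood urate. Libraries 1, 2 and 3 held 13.3, 42.8 and 7.91 CPM in MG-LCs, 44.6, 68.0 and 62.6 in KC-LCs, 70.3, 59.6 and 30.9 in PM-LCs, and 1.70, 4.89 and 2.51 in AM-LCs. Sorted MG and AM had no read, KCs 1, 0 and 23 reads, and PMs 3, 7 and 4. The AM-LC mean of 3.03 ± 1.66 CPM (SD, n = 3) was at least 37.8-fold above the floor of sorted AMs, yet all 3 AM-LC libraries lay below all 9 of the other cultures, as for 4.71% of genes tested. The log2 difference between AM-LCs and the others was -3.73 (SE 0.61, 95% interval -5.07 to -2.39, adjusted p = 0.00369). Of 8 related genes, Xdh, which makes urate, rose to 188 CPM in MG-LCs and 130 CPM in AM-LCs, and the urate exporter Abcg2 to 109 CPM in AM-LCs. Uox, which breaks urate down, was called lower in KC-LCs, where it had no read against 2.68 CPM ex vivo. The neighbour Tmem174 had no read in any library, and 1, 0, 0 and 2 of the list were called higher and 0, 1, 0 and 0 lower.

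Pcp4l1 (chr1:171173262-171196268, minus strand) encodes a small protein with an IQ motif, related to the calmodulin regulator Pcp4. Its CPM in libraries 1, 2 and 3 was 6.74, 153 and 36.7 in MG-LCs and 144, 156 and 85.9 in KC-LCs. PM-LCs held 34.6, 32.5 and 21.3 CPM, and AM-LCs 1.47, 0.687 and 1.33 CPM. AM-LCs were lowest throughout, with 45, 18 and 37 reads. Sorted MG had 22, 16 and 83 reads, up to 1.98 CPM, so AM-LCs did not exceed sorted MG, although sorted AMs had no read and AM-LCs were at least 14.5-fold above their floor. In KC-LCs the mean of 128 ± 37.3 CPM was at least 1573-fold above that of the sorted cells, which had no read.

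AM-LCs differed from the other cultures in Pcp4l1 by -5.72 on the log2 scale (SE 0.92, 95% interval -7.74 to -3.69, adjusted p = 0.00342), with all 3 AM-LC libraries below all 9 others, again beside 4.71% of genes. This call was lost in limma-voom, where the difference was -5.44 with an adjusted p of 0.0807. KC-LCs exceeded PM-LCs by 2.13 (SE 0.80, adjusted p = 0.293), and their libraries did not overlap, as for 9.36% of genes. Pcp4 itself was called lower in MG-LCs, at 0.00830 against 0.688 CPM. Camk2a, a calmodulin-dependent kinase gene, was called lower in MG-LCs at 0.312 against 2.54 CPM, and Camk1 higher in KC-LCs at 534 against 137 CPM. Of 12 genes on this list, 2, 2, 0 and 0 were called higher in MG, KC, PM and AM cultures and 2, 0, 1 and 0 lower.

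Across the 12 cultured libraries, 2 of the 10 members, Tmem171 and Pcp4l1, passed the test of the 4 cultures (adjusted p = 0.0147 and 0.0133), where 7.85% of 14813 genes did. The same 2 passed in AM-LCs against the others, where 13.1% of genes did, and both were lower. No member was called between MG-LCs and the mean of KC-LCs and PM-LCs, a contrast in which edgeR called 0 genes, 2687 had an unadjusted p under 0.05 and DESeq2 called 1001. There Npy (-1.76, 95% interval -3.23 to -0.30), Bdh2 (-1.92, -3.56 to -0.27) and Tmem171 (-1.39, -2.57 to -0.21) had intervals below 0 with adjusted p of 0.201 to 0.213. No member was called between KC-LCs and PM-LCs, where 0.108% of genes were. The rule asked for high levels in all 4 cultures, so a test between cultures is a different contrast but not one made on a random set of genes.

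**Figure D2:**
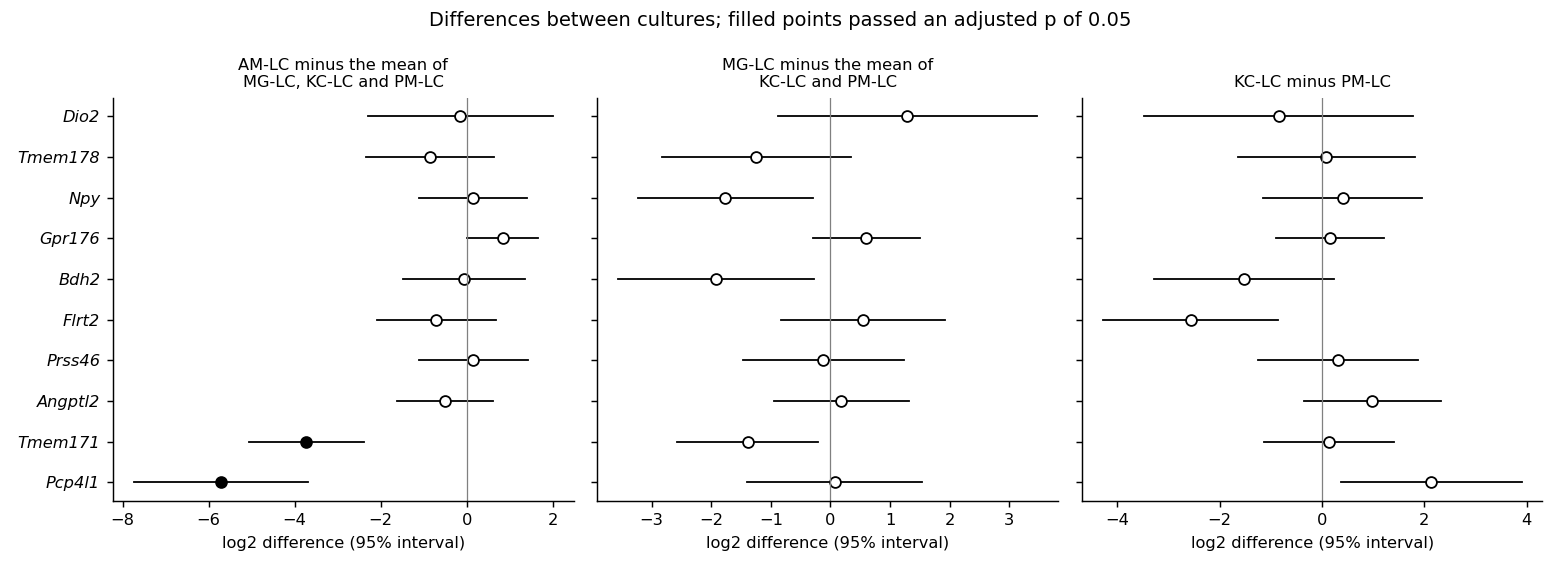
Log2 difference with its 95% interval for each gene in 3 contrasts between cultures of 3 libraries each, filled where the adjusted p was under 0.05. Tmem171 and Pcp4l1 stand at -3.73 and -5.72 in the AM-LC contrast, and the other 28 points are open.

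In order of mean level, 27 of the 30 neighbouring pairs of cultures had overlapping libraries. The exceptions were AM-LCs over MG-LCs for Npy, MG-LCs over AM-LCs for Tmem171, as for 14.7% of genes, and PM-LCs over AM-LCs for Pcp4l1, as for 14.5% of genes. Per kilobase of exon, Npy led with 180 to 712 CPM per kb, followed by Pcp4l1 at 81.4 CPM per kb in KC-LCs. Tmem171 reached 36.9 CPM per kb in KC-LCs and Angptl2 21.3. The lowest were Bdh2 in MG-LCs and KC-LCs at 0.494 and 1.13 CPM per kb, Prss46 in PM-LCs at 2.62 and Pcp4l1 in AM-LCs at 0.737.

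**Figure D3:**
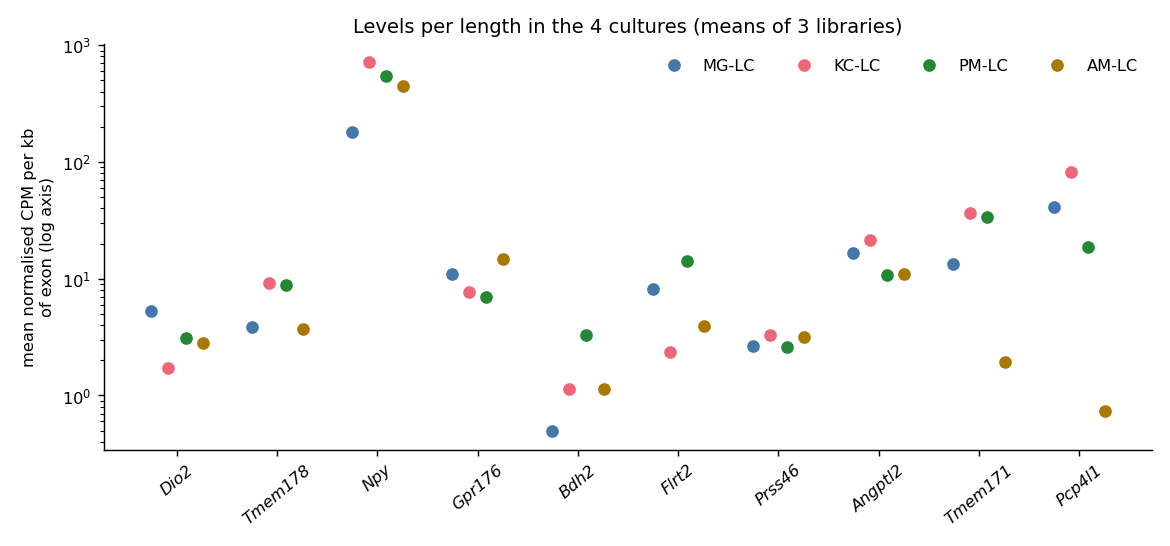
Mean normalised CPM per kilobase of exon (log axis) of each gene in the 4 cultures, each point a mean of 3 libraries. Npy stands above every other gene in each culture, and Tmem171 and Pcp4l1 show the AM-LC point far below the other cultures.

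The members were less even over the 3 libraries than the typical gene. The median CV of the 10 was 83.0% in MG-LCs, 37.1% in KC-LCs, 40.5% in PM-LCs and 35.3% in AM-LCs, beside 39.6%, 25.7%, 34.5% and 25.4% over the 14813 genes tested. In MG-LCs all 10 exceeded the median of all genes, in KC-LCs 7, in PM-LCs 8 and in AM-LCs 6. Over all 40 combinations the median CV was 45.6%. Dio2 in MG-LCs had the largest CV at 160%, followed by Pcp4l1 there at 118%. The smallest were Tmem178 in AM-LCs at 7.04%, Gpr176 in KC-LCs at 12.1% and Angptl2 in PM-LCs at 14.5%. Low and high genes vary differently in count data, and this description made no allowance for level.

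**Figure D4:**
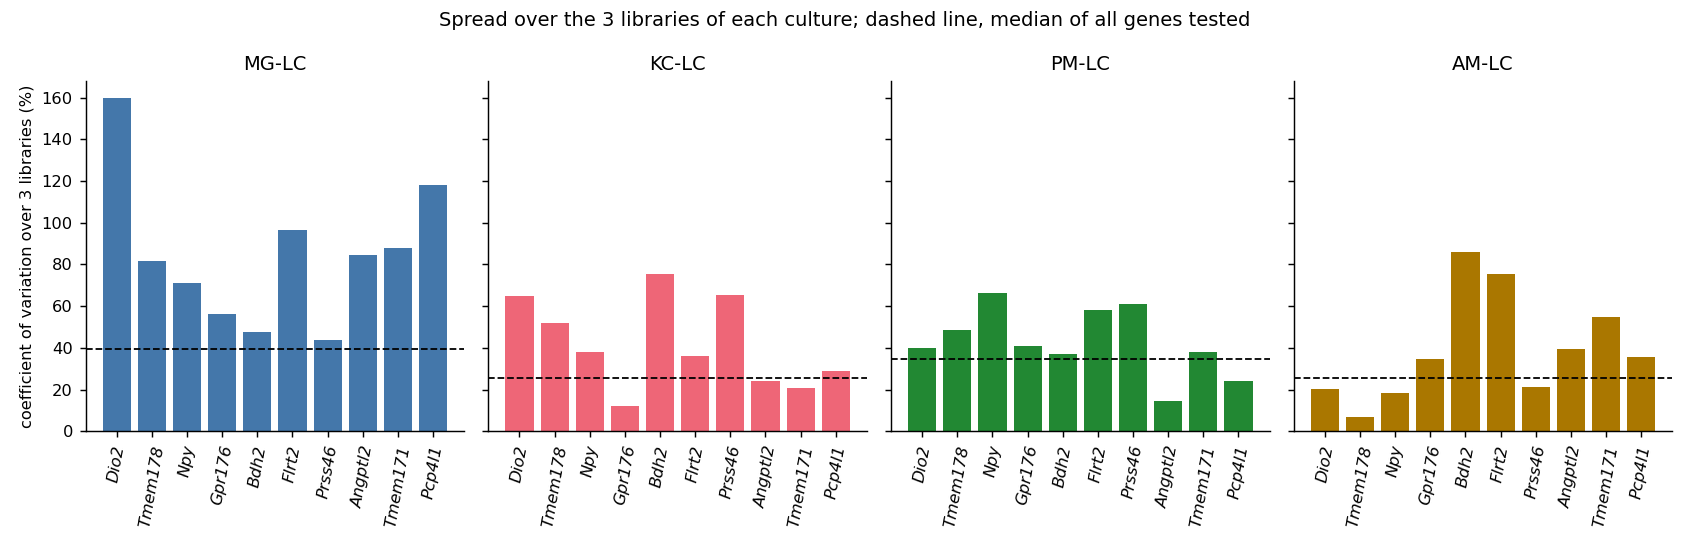
Coefficient of variation in percent of each gene over the 3 libraries of each culture (bars), with the median of 14813 genes as a dashed line. Dio2 in MG-LCs reaches 160%, and the bars of MG-LCs all pass the dashed line at 39.6%.

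The uneven libraries were not the same for each gene. MG-LC library 3 was lowest for 8 of 10 members and PM-LC library 3 for 7. In MG-LC library 3 the microglia marker list added up to 2398 CPM, above 295 and 955 CPM in libraries 1 and 2, and the PM list in PM-LC library 3 to 2143 CPM, above 1468 and 858 CPM. MG-LC library 1, rich in fibroblast and mesothelium genes, was highest for 5 members, among them Dio2, Flrt2 and Angptl2, and lowest for 2, Tmem178 and Pcp4l1. The part of these cells in the results was not tested. In KC-LC library 1, 7 of the 8 fibroblast and mesothelium genes had no read, and the members had 126 to 13194 reads. Over the 12 libraries, log2 level against log2 of the sum gave Pearson's r of 0.645 for Flrt2 and -0.658 for Tmem178, and between -0.493 and 0.407 for the others, as a description over points that share libraries.

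**Figure D5:**
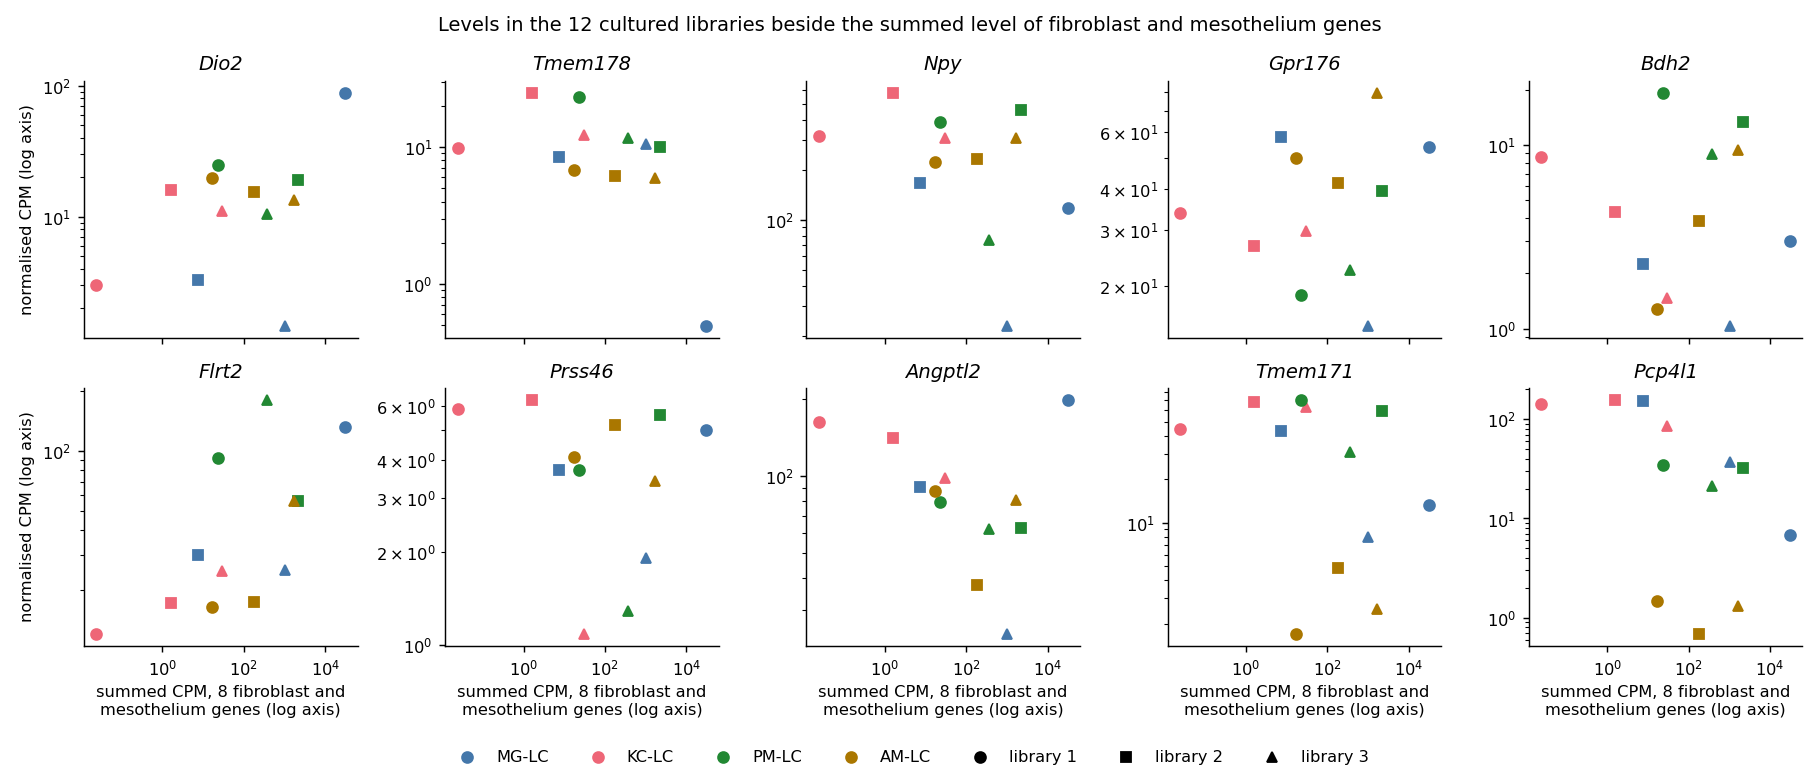
Normalised CPM of each gene against the summed CPM of 8 fibroblast and mesothelium genes in the 12 cultured libraries (both axes log), coloured by culture and shaped by library. MG-LC library 1 stands far right at 30934 CPM, with the highest Dio2 and Angptl2 and the lowest Tmem178, while KC-LC library 1, at 0.0240 CPM, carries all 10 genes.

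The 10 genes did not move as 1 unit. Of 45 pairs over the 12 cultured libraries, 3 had a Pearson's r above 0.5 and 1 below -0.5, and the median was 0.272. These counts depend on MG-LC library 1. Without it r rose from 0.422 to 0.744 for Tmem178 and Tmem171 and from 0.419 to 0.676 for Dio2 and Npy. It fell from 0.475 to 0.293 for Dio2 and Flrt2 and from 0.439 to 0.221 for Dio2 and Angptl2. Tmem171 and Pcp4l1 were the closest pair at 0.863, and 0.864 without MG-LC library 1, both being low in AM-LCs. Gpr176 and Tmem178 ran opposite at -0.549, and at -0.685 without MG-LC library 1. Among all genes tested, the closest over the 12 libraries were Gbp3, H2-T22 and H2-Q6 for Dio2 (r 0.943, 0.939 and 0.911), of which Gbp3 is an interferon-induced GTPase and the others are class I major histocompatibility genes. Gng2, Slc27a1 and Pid1 were closest to Pcp4l1 (0.973, 0.967 and 0.966), Hnmt, Pip4p1 and Gltp to Tmem178, Polr2j, Bvht and Slamf9 to Npy, and Fam117a, Prg4 and Tacc2 to Flrt2. Aacs, the acetoacetyl-CoA synthetase, was closest to Gpr176 (0.910), Tnfsf18 to Bdh2 (0.874), Ndufaf7 to Prss46 (0.907), Nudt21 to Angptl2 (0.896) and Grcc10 to Tmem171 (0.956). None of the 30 genes nearest to a member was itself a member, and 10 of the 30 remained when MG-LC library 1 was left out. Over all 24 libraries, where the sorted and cultured contrast dominates, 7 of 30 were members, for instance Flrt2 beside Dio2 (0.965) and Prss46 beside Gpr176 (0.963).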

How the data were processed

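RNA of 24 samples, 12 sorted and 12 cultured, had been amplified with a SMARTer kit and tagged with Nextera, a preparation that does not keep strand. The authors deposited 1 table of raw read counts per gene, not normalised, made after trimming (Trimmomatic) and alignment (STAR). The submitters' processing notes name Trimmomatic 0.36, STAR 2.5.2b and the genome build hg19, whereas the study's methods name mm10, and the identifiers are those of mouse genes. The study's methods name STAR as the counter too, and other versions of both tools than the notes. All 24 columns matched a sample.

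Here CPM were scaled with TMM factors (edgeR 4.0.16 in R 4.3.3). The 12 cultured libraries entered 1 quasi-likelihood fit (glmQLFit, filterByExpr with a minimum count of 10) with 3 contrasts and a test of 4 groups, and sorted and cultured libraries of each tissue a fit of their own, with Benjamini-Hochberg adjustment over all genes. Standard errors follow from the fold change and F. The scripts were tested on simulated data. DESeq2 1.42.0, limma-voom, the method of the study (limma 3.58.1), RLE factors, no filter, all libraries in 1 model, a replicate block and leaving out each library were alternatives, and ratios of cultured to sorted means without each cultured library were added after seeing the data. Exon lengths and positions come from GENCODE on GRCm38.

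The members and all lists were chosen with earlier results of these data known. Named were the 10 members, the 10 genes with the largest smallest tissue difference, 3 genes nearest to each member over 12 and over 24 libraries, and of each of 10 related lists at most 4 with the largest called change plus receptors, ligands and paralogs. Called means an adjusted p under 0.05, and between sorted and cultured cells also an absolute log2 fold change above 1.5. No source says that libraries came from separate animals or cultures, so p-values measure only the spread between these libraries. Intervals and floors of 3 reads cover counting error only. Some genes of the related lists are not reported here.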

Additional observations from a re-analysis of the deposited data

Results flagged for a closer look

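None of the 10 members could be screened for outlying libraries, since groups of 3 are not tested. Listed are 10 related genes that were called in opposite directions in a pair of tissues and passed a test of the difference of the changes. That test was edgeR's quasi-likelihood test over all 24 libraries. Passing it was a condition of the listing, and it used the same libraries as the calls, so it adds no separate support. Where several pairs passed, the pair with the largest difference was kept. Genes called in opposite directions that did not pass were not counted. The values are differences on the log2 scale between the cultured minus sorted changes of the tissues named. Klf9, a thyroid hormone responsive factor, rose in MG-LCs and fell in KC-LCs, a difference of 6.65 (adjusted p = 3.46e-07). Angptl4 rose in MG-LCs and fell in AM-LCs, a difference of 11.87 (adjusted p = 0.000198). Its highest MG-LC library held 209 CPM beside a group mean of 77.0 CPM, so that mean rested largely on this library. Nfatc2 fell in MG-LCs and rose in PM-LCs, with MG minus PM at -6.31 (adjusted p = 0.00234). Nr1d1, a clock repressor, rose in PM-LCs and fell in AM-LCs, a difference of 4.94 (adjusted p = 0.00128).

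For the genes that fell in the first tissue and rose in the second, KC minus AM was -8.80 for Thrb (adjusted p = 0.00359), -14.47 for Dpp4 (adjusted p = 0.00208) and -15.05 for Tenm4 (adjusted p = 0.000239). PM minus AM was -11.01 for Lcn2 (adjusted p = 0.0173) and -10.78 for Fgfr1 (adjusted p = 1.44e-05), and KC minus PM was -6.81 for Adcy3 (adjusted p = 1.32e-05). Sorted and cultured libraries did not overlap in either tissue of each pair, except for Dpp4 in AM. Fitted values of genes near 0 in a group depend on the prior count.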

How the results depend on the processing

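The calls of Tmem171 and Pcp4l1 in AM-LCs against the other cultures kept their direction and passed the threshold under each alternative except limma-voom, where Pcp4l1 (-5.44, adjusted p = 0.0807) did not pass. Flrt2 between KC-LCs and PM-LCs (-2.60, adjusted p = 0.00812) and Npy in the MG-LC contrast (-1.74, adjusted p = 0.0454) passed in DESeq2 only, and Tmem171 in the MG-LC contrast passed without MG-LC library 2 (-2.33, adjusted p = 0.0337). The cause was not tested. Adding 1 CPM in place of 0.1 moved the median place of the members from 12 to 43. The median CV of 45.6% was 46.4% by library size alone and 46.5% with RLE factors. Depth limits the sorted values, where 3 reads correspond to 0.0661 to 0.1002 CPM.

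Counts of genes called between cultures moved with the tool, the libraries fitted and single libraries. DESeq2 called 3125 genes in AM-LCs against the others, 1001 in the MG-LC contrast, 997 between KC-LCs and PM-LCs and 3762 among the 4 cultures, against 1939, 0, 16 and 1163 in the edgeR fit of 12 libraries. With all 24 libraries in 1 model these were 3140, 972, 447 and 3673. Without a filter on low counts 17 genes were called in the MG-LC contrast and 62 between KC-LCs and PM-LCs, and limma-voom called 1 in the MG-LC contrast.

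Leaving out 1 library at a time gave 723 (without AM-LC library 2) to 2883 (without MG-LC library 1) genes in AM-LCs against the others, 0 to 830 (without MG-LC library 2) in the MG-LC contrast, 0 (without KC-LC library 3) to 134 (without MG-LC library 1) between KC-LCs and PM-LCs, 308 (without AM-LC library 2) to 1846 (without MG-LC library 1) among the 4 cultures, and 2324 (without MG library 1) to 5267 between sorted and cultured MG, where the full fit called 4303.

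Some differences that did not pass the test changed sign. In limma-voom Dio2 was 0.69 in the AM-LC contrast and -0.60 in the MG-LC contrast, where Prss46 was 0.10, Angptl2 -0.28 and Pcp4l1 -0.78. Without 1 library, the AM-LC contrast ran from -0.34 to 1.12 for Dio2, -0.042 to 0.31 for Npy, -1.04 to 0.39 for Bdh2 and -0.021 to 0.33 for Prss46. The MG-LC contrast ran from -2.51 to 1.85 for Dio2, -0.69 to 0.93 for Flrt2, -0.50 to 0.19 for Prss46, -0.75 to 0.66 for Angptl2 and -1.48 to 0.60 for Pcp4l1, and the lowest values of Dio2, Flrt2, Prss46 and Angptl2 were those without MG-LC library 1. KC-LC minus PM-LC ran from -0.44 to 0.53 for Tmem178, -0.058 to 0.85 for Npy, -0.051 to 0.57 for Gpr176, -0.084 to 0.84 for Prss46 and -0.14 to 0.36 for Tmem171.

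The values showed no consistent pairing by replicate number. Deviations of same-numbered cultured libraries correlated above 0.1 in 5 of 18 pairs (-0.38 to 0.29), and those of sorted and cultured libraries in 0 of 12. With so few libraries per group this cannot decide whether same-numbered libraries shared mice. With the replicate block 2 genes were called between KC-LCs and PM-LCs. With that block Dio2 was 0.11 and Bdh2 0.22 in the AM-LC contrast, Prss46 0.041, Angptl2 -0.046 and Pcp4l1 -0.21 in the MG-LC contrast, and Tmem178 -0.077 between KC-LCs and PM-LCs.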
